A study of Mus musculus with 16 samples.

Results

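Cytosolic ribosomal proteins were examined in CD4+ and CD8+ tumour-infiltrating lymphocytes (TILs) of mice with and without the deacetylase SIRT2. The genes were the protein-coding rows of the count table whose symbols follow the mouse Rpl and Rps nomenclature, including Rplp0, Rplp1, Rplp2 and Rpsa. This rule found 84 genes among 55450 rows, of which 52 have symbols of the large subunit (Rpl) and 32 of the small subunit (Rps). Large and small subunit members are told apart by symbol alone, so paralogs are counted with them. RNA was sequenced from 16 libraries, 4 in each of 4 groups: CD4+ WT, CD4+ Sirt2-/-, CD8+ WT and CD8+ Sirt2-/- TILs. All mice carried B16F10 tumours, a mouse melanoma line grown under the skin, and the Sirt2-/- mice carried a whole-body deletion (strain B6.129-Sirt2tm1.1Fwa/J), so SIRT2 was missing from the host as well as from its T cells. Mice of both sexes, aged 7 to 8 weeks, entered the study, and the labels do not give the sex of each library or say whether CD4+ and CD8+ libraries with the same number came from the same animal. P values therefore measure the spread between these libraries.

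Each ribosome is built from a small subunit, which reads the mRNA, and a large subunit, which joins amino acids. Their proteins are assembled on ribosomal RNA in the nucleolus and are needed in nearly equal numbers, and their mRNAs are among the most abundant of any cell. Many of these mRNAs start with a run of pyrimidines, the 5′ terminal oligopyrimidine (TOP) motif, through which mTORC1 and the RNA-binding protein LARP1 control their translation. T cells enlarge their ribosome pool when they are activated and divide.

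Pyrimidine motifs are marked below wherever they lie, before or after the annotated start, so a marked stretch need not be a TOP motif. The sequences come from genes that were higher in CD8+ than in CD4+ TILs in the results that follow. Each is the 30 bases from 15 before to 15 after the RefSeq start, on the strand of the gene in GRCm38.p6, and capitals mark the motif CTTTC, the motif CTTCC, the motif CTCTT and the motif CCTTT, which can overlap.
Rps12, chr10:23787195-23787224, minus strand: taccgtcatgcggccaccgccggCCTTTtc
Rps26, chr10:128626492-128626521, minus strand: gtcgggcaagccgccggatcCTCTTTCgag
Rps18, chr17:33955651-33955680, minus strand: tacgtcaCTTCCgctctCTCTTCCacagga
Rps15a, chr7:118116133-118116162, minus strand: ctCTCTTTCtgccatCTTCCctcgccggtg
Rps2, chr17:24720048-24720077, plus strand: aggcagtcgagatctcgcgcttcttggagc
Rpl15, chr14:18270972-18271001, minus strand: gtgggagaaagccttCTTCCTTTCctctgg
Rpl7a, chr2:26910792-26910821, plus strand: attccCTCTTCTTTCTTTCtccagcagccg

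At least one of these 4 motifs lay in the window of 30 of the 64 members that have a promoter in the RefSeq table, or 46.9%, against 16.9% of 27025 genes. On the opposite strand the shares were 17.2% of the members and 17.8% of all genes. Rps2 has none of these letters in its window. The motif CCGGAAG, on either strand of the 300 bases around the start, was present in 40.6% of the members and in 9.93% of all genes.

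Library totals ran from 28000949 to 62407851 counts on genes. Sirt2, the targeted gene, had 2272, 1886, 1825 and 1681 counts in the CD4+ WT libraries against 553, 433, 469 and 0 in CD4+ Sirt2-/-, and 1703, 1325, 1230 and 1196 in CD8+ WT against 448, 418, 322 and 358 in CD8+ Sirt2-/-. Cd4 lay between 344 and 639 CPM (counts of a gene scaled to a library total of 1000000 gene counts) in the CD4+ libraries and at no more than 4.94 in the CD8+ libraries. Cd8a lay between 949.9 and 1250.5 CPM in the CD8+ libraries and at no more than 34.6 in the CD4+ libraries. In 3 libraries few genes had any count: CD4+ Sirt2-/- replicate 4 with 8169, CD4+ WT replicate 1 with 12587 and CD8+ WT replicate 1 with 14411, against 17730 to 22138 in the other 13. The CPM of 7 melanoma genes summed to 105.7 in CD4+ WT replicate 1 and to 72.9 in CD4+ Sirt2-/- replicate 4, against 3.84 to 15.7 elsewhere. Counts of called genes are given with and without these 3 libraries.

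Ribosomal protein mRNA took a larger share of the CD8+ than of the CD4+ libraries, in both genotypes. Of all gene counts, the 84 genes held 3.95%, 3.81%, 4.07% and 3.34% in CD4+ WT and 4.72%, 3.97%, 3.63% and 3.64% in CD4+ Sirt2-/- TILs. They held 5.04%, 5.97%, 6.08% and 6.26% in CD8+ WT and 6.47%, 6.99%, 6.0% and 5.23% in CD8+ Sirt2-/- TILs. No CD8+ library fell as low as a CD4+ library, while WT and Sirt2-/- libraries overlapped within each cell type. The means were 3.79% ± 0.319 and 3.99% ± 0.511 (SD, n = 4 each) in WT and Sirt2-/- CD4+ TILs and 5.84% ± 0.546 and 6.17% ± 0.746 (SD, n = 4 each) in WT and Sirt2-/- CD8+ TILs. In a bulk library a share of counts cannot tell fewer cells of a type from less RNA per cell. Counts on large subunit genes were 1.51 ± 0.103 times those on small subunit genes in CD4+ WT TILs and 1.47 ± 0.0144 times in CD8+ WT TILs (SD, n = 4 each), and these groups overlapped. In Sirt2-/- mice the ratio was 1.55 ± 0.0377 in CD4+ and 1.47 ± 0.0178 in CD8+ TILs (SD, n = 4 each), where the lowest CD4+ library, at 1.495, lay just above the highest CD8+ library, at 1.493.

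**Figure D1:**
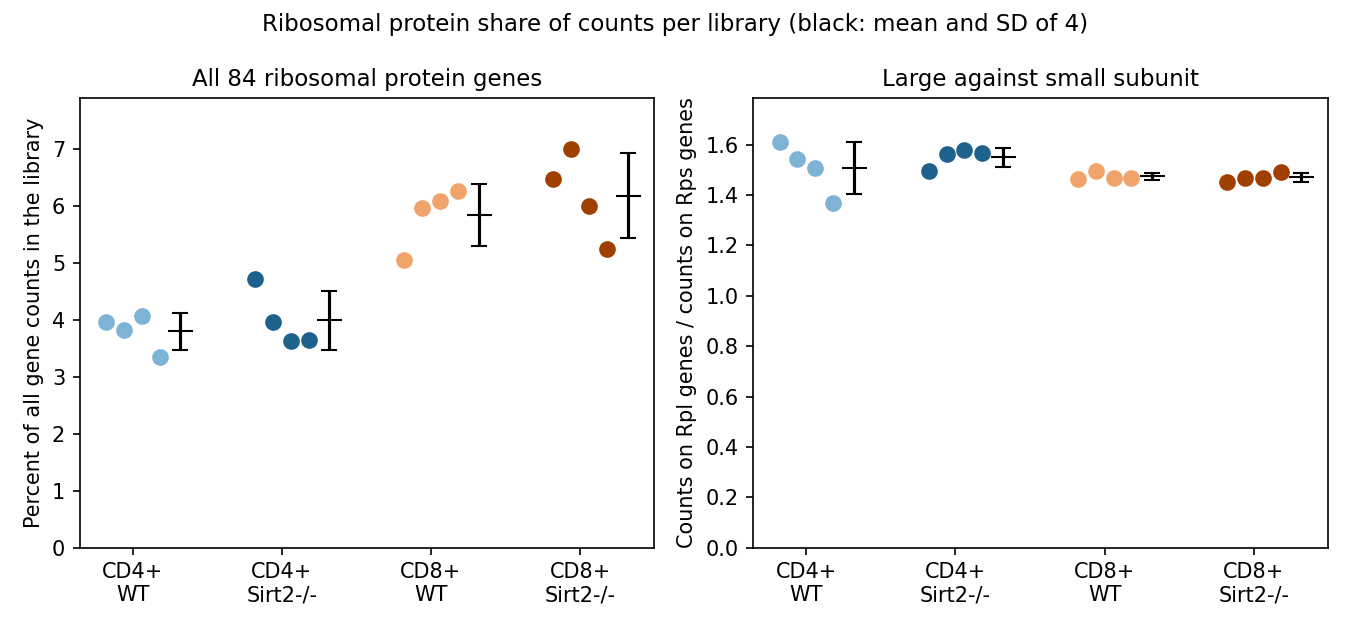
Share of all gene counts on the 84 ribosomal protein genes (left, percent) and counts on large subunit genes divided by counts on small subunit genes (right), with 1 point per library and the mean and SD of 4 libraries in black. The CD8+ libraries, at 5.04% or more, lie above the CD4+ libraries, at 4.72% or less, and the ratio of the subunits stays between 1.37 and 1.61.

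Levels differed widely among the members. By CPM the highest were Rpsa, Rplp0, Rpl4, Rps23 and Rpl8, which together held 20.1% of the ribosomal protein counts on average over the 16 libraries. Per length, in CPM per kilobase of exon, Rplp1 was highest with a mean of 2100.2 over the 16 libraries, followed by Rps23 with 1237, Rplp0 with 1211, Rpl8 with 987 and Rpl23a with 971. Exon length covers every annotated exon of a gene, in any of its transcripts, so the ranking per length depends on the annotation. Rplp0 and Rplp1 belong to the acidic stalk, which recruits elongation factors to the large subunit.

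At the other end stood paralogs and genes that share their exons with another annotated gene. Rpl10l had no count in any library, Rpl3l had at most 3 and Rpl39l at most 14, and these 3 were not tested, which left 81 tested members. Rpl24, Rps10, Rpl36al and Rpl13a had means of 0.957, 1.06, 1.13 and 4.47 CPM per kilobase, against at least 16 in every other tested member. These 4 are the members with over 20% of their exon bases inside another gene of the same strand, such as Gm28037 over 47.0% of the exon bases of Rpl24 and RPS10-NUDT3 over 20.6% of those of Rps10. Counting by gene cannot assign a read that lies in both, so their values are uncertain. Sequence shared with other genes, among them pseudogene copies, is a second limit. The median member shared 30% of its 100-base stretches with a transcript of another gene, 8 members shared none and 22 shared over 50%.

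CD4+ Sirt2-/- replicate 4 stood apart in these genes. Its members scattered around the mean of the other 3 libraries of its group with an SD of 1.34 log2 units, against 0.131 to 0.487 in the other 15 libraries. In its own group the other libraries had 0.461 to 0.487, and each was measured against a mean that includes replicate 4. Rpl22l1, Rps27l, Rpl24 and Rps10 had counts in every other library of that group and none in this one, where 3 counts would make 0.0481 CPM. Rpl39 had 0.0641 CPM there against 67.9 to 84.7 CPM in the other 3 libraries, while Rpsa had 4515 CPM against 2151 to 2645. Single genes thus lay far below or above the rest of the group in this library while their summed share, 3.64%, lay within that of the other CD4+ libraries.

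**Figure D2:**
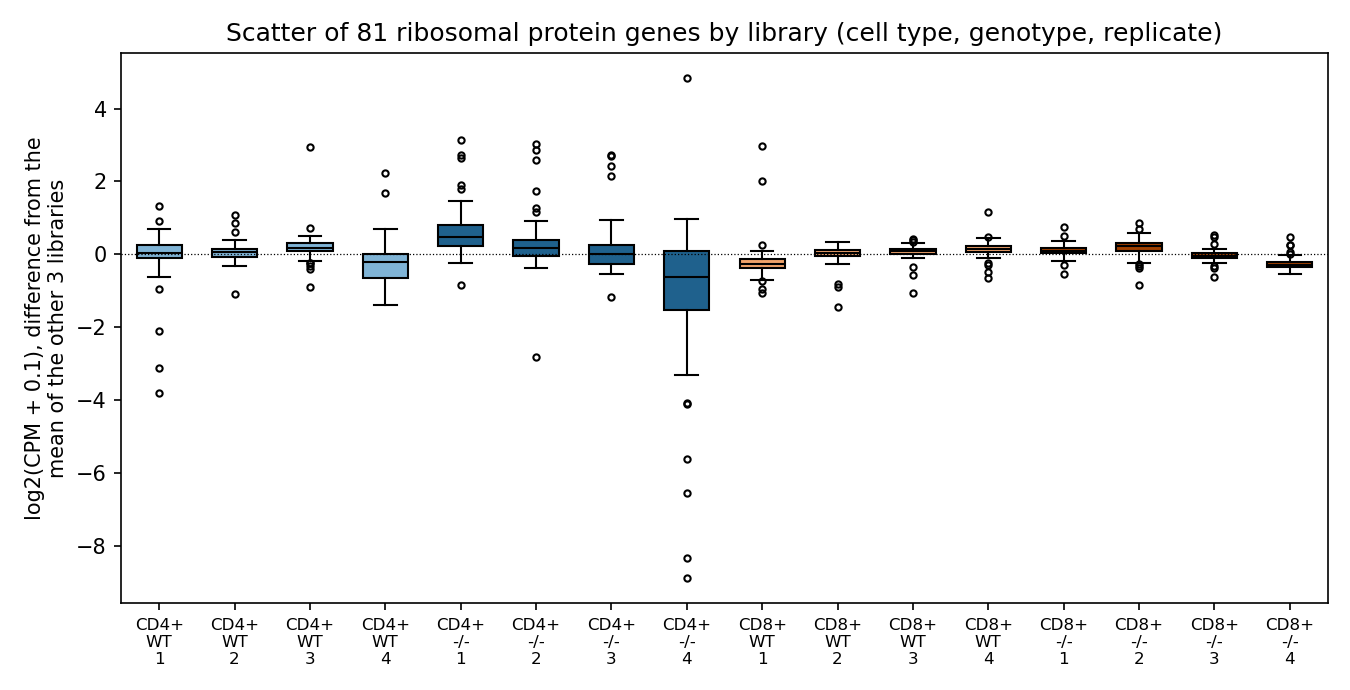
Difference of log2(CPM + 0.1) of each of the 81 tested members from the mean of the other 3 libraries of its group, as 1 box per library (box: quartiles, line: median, whiskers: 1.5 times the quartile range, dots: genes beyond). CD4+ Sirt2-/- replicate 4 has the widest box, with an SD of 1.34 log2 units.

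The first question was whether ribosomal protein mRNA depends on SIRT2 within each cell type. In CD4+ TILs, no member passed the threshold (edgeR's quasi-likelihood test, adjusted p of 0.05 over all genes), where the test called 0% of all 15070 genes. Of the 81 members, 41 were higher and 40 lower in Sirt2-/- than in WT, with a median log2 fold change of 0.0087 against -0.11 over all genes. Without 1 library the median ran from -0.16 (without CD4+ Sirt2-/- replicate 1) to 0.13 (without CD4+ Sirt2-/- replicate 4). At an unadjusted p of 0.05, 2 members passed, against 1.26% of all genes. DESeq2 and limma-voom also called none of the members, with 0.0464% and 0.0265% of all genes called.

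Both of these were higher in Sirt2-/-. Rpl12, a protein of the large subunit stalk base, had 643, 633, 699 and 546 CPM in WT and 920, 723, 706 and 953 CPM in Sirt2-/- CD4+ TILs, and the groups did not overlap (log2 fold change 0.43 ± 0.17 SE, edgeR adjusted p = 0.9999). The 2 members were also the only ones whose groups did not overlap in CPM in this comparison, or 2 of 81, against 2.81% of all genes, and 1.28% in this direction. Without the libraries with few genes detected, no member passed an adjusted p (0.0374% of all genes did) or an unadjusted p of 0.05, 56 members were higher and 25 lower, and the median was 0.12.

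In CD8+ TILs the members lay closer together. None passed the threshold, where the test called 0.00654% of all 15302 genes, the single gene being Sirt2. None passed at an unadjusted p of 0.05 either, against 3.78% of all genes. Of the members, 73 were higher and 8 lower in Sirt2-/-, with a median log2 fold change of 0.10, a 1.07-fold difference, against 0.01 over all genes. The standard errors had a median of 0.12 here and of 0.22 in CD4+ TILs. Only Rpl15 did not overlap between the groups, with 202, 209, 217 and 210 CPM in WT and 200, 190, 198 and 189 CPM in Sirt2-/- (log2 fold change -0.08 ± 0.08 SE, edgeR adjusted p = 0.99), where 2.93% of all genes did not overlap. After trimmed-mean normalization over the 16 libraries, no member remained without overlap in CD8+ TILs and 3 were without overlap in CD4+ TILs, against 3.03% and 2.8% of all genes. Without CD8+ WT replicate 1, which has few genes detected, 56 members were higher and 25 lower, with a median of 0.05.

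Whether the genotype difference itself differed between CD8+ and CD4+ TILs was tested as an interaction over all 16 libraries. No member passed the threshold, and edgeR called 0% of 17270 genes. At an unadjusted p of 0.05 no member passed, against 1.98% of all genes, and DESeq2 called 0.0116% of all genes and limma-voom 0%. The median over the members was 0.10, against 0.14 over all genes, and it was -0.04 without the 3 libraries with few genes detected and -0.02 without CD4+ Sirt2-/- replicate 4 alone.

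**Figure D3:**
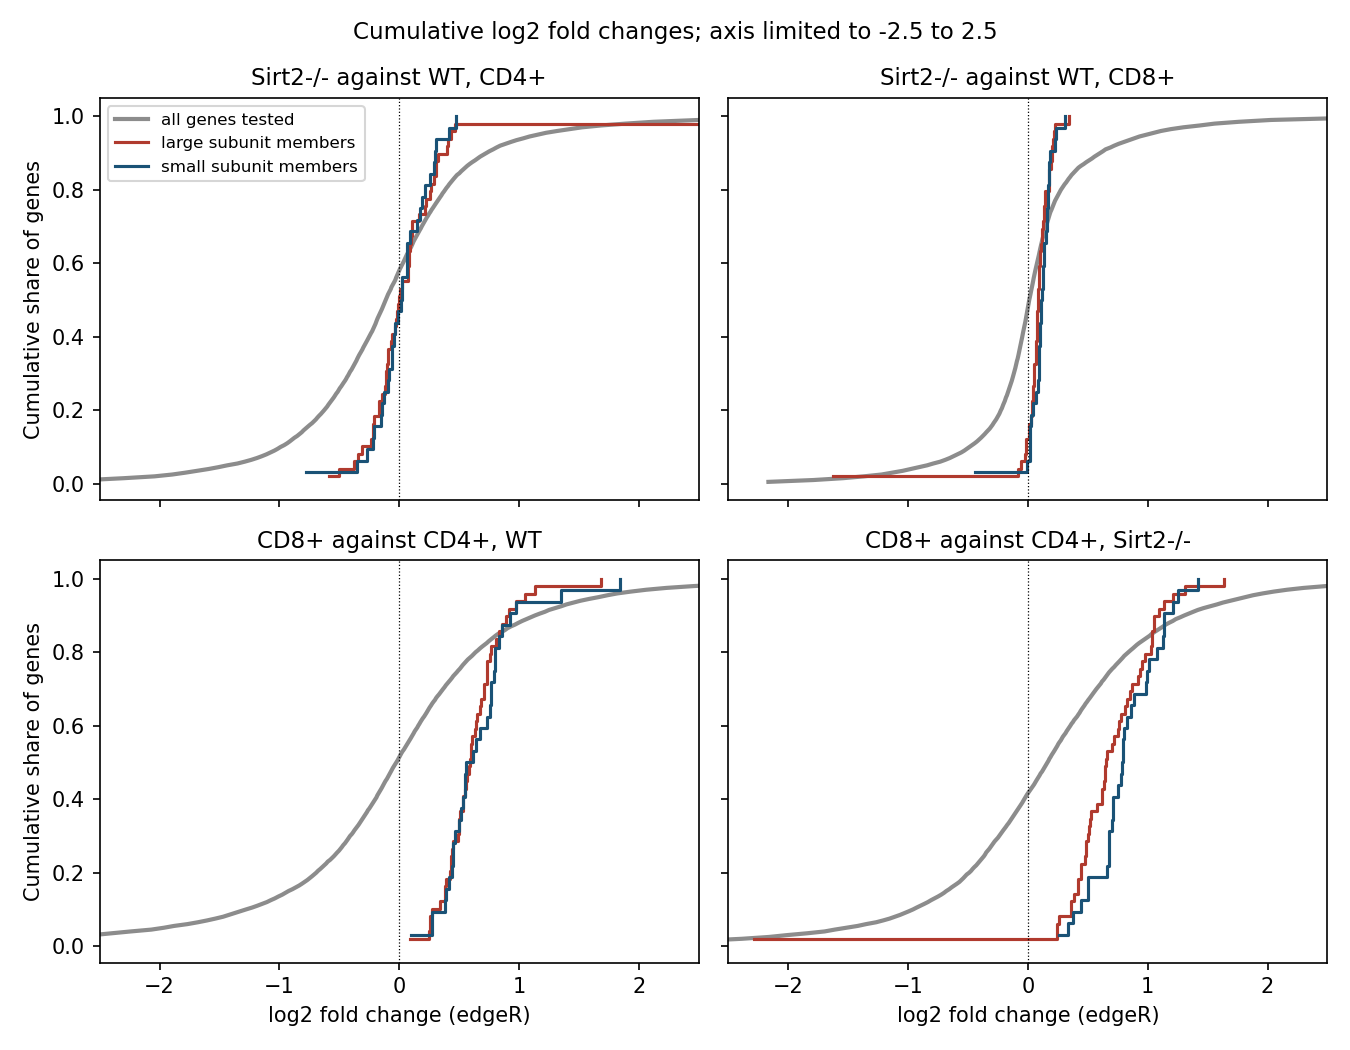
Cumulative share of genes (vertical) against log2 fold change (horizontal, edgeR) in 4 comparisons, for all genes tested (grey), the 49 large subunit members (red) and the 32 small subunit members (blue). The members' curves lie near 0 between genotypes, with medians of 0.0087 and 0.10, and to the right of all genes between cell types, with medians of 0.59 and 0.72.

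CD8+ TILs had higher ribosomal protein mRNA levels than CD4+ TILs across nearly the whole set. In WT mice all 81 tested members had a positive log2 fold change, and 50 rose past the threshold in CD8+ TILs, 61.7% of the members against 4.89% of 14892 genes called higher and 11.9% called in either direction. The median was 0.59, a 1.51-fold difference, against -0.02 over all genes, and the quartiles of the members lay at 0.45 and 0.76. Both subunits took part: 31 of 49 large subunit and 19 of 32 small subunit members rose, with medians of 0.59 each. Leaving out CD8+ WT replicate 3 or 4 lowered the count to 31 or 28, and limma-voom raised it to 77, with 37% of all genes called. In 63 of 81 members every CD8+ WT library was above every CD4+ WT library, against 12.8% of all genes.

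Rpl36a, a large subunit protein encoded on the X chromosome, had the smallest p. It had 213, 192, 194 and 128 CPM in CD4+ WT and 328, 371, 409 and 374 CPM in CD8+ WT TILs (log2 fold change 0.98 ± 0.13 SE, edgeR adjusted p = 0.00059, and 0.14 with all 16 libraries in 1 model). Every CD8+ WT library lay above every CD4+ WT library. In Sirt2-/- mice Rpl36a had 233, 193, 165 and 27.9 CPM in CD4+ and 414, 387, 380 and 323 CPM in CD8+ TILs, again without overlap, but the value of 27.9 in CD4+ replicate 4 widened its error (log2 fold change 1.31 ± 0.50 SE, edgeR adjusted p = 0.32).

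Other members with small p were Rpl23, Rps3a1, Rpl41, Rpl28 and Rpl10a, with log2 fold changes between 0.60 and 0.91 in WT. Rpl23, a large subunit protein, had 568, 620.2, 627 and 500.4 CPM in CD4+ and 915, 1042, 1047 and 1013 CPM in CD8+ WT TILs. Every CD8+ value of Rpl23 lay above every CD4+ value, and the log2 difference of 0.73 ± 0.11 SE passed the threshold (edgeR adjusted p = 0.0013).

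In Sirt2-/- mice 80 of 81 members were higher in CD8+ TILs, with a median log2 fold change of 0.72 against 0.16 over all genes. Here 9 members rose past the threshold, 11.1% of the members against 0.918% of 15787 genes called higher and 2.24% called in either direction. The groups did not overlap in 61 of 81 members, against 14.6% of all genes in this direction. After trimmed-mean normalization over the 16 libraries the groups did not overlap in 57 members in each genotype, all of them higher in CD8+ TILs. Counted in either direction, 19.9% of all genes in WT and 20.8% in Sirt2-/- mice did not overlap. The exception in sign was Rpl36al, one of the 4 members that share exons with another gene, with 14.5 CPM in CD4+ Sirt2-/- replicate 4 and at most 1.59 in the other 15 libraries. The median of the standard errors was 0.22, against 0.14 in WT. Rps12 and Rps2 kept their call when any 1 library was left out, and the other 7 lost it at least once.

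Without CD4+ Sirt2-/- replicate 4, which had few genes detected, 71 of 81 members rose past the threshold in Sirt2-/- mice, against 25.4% of all genes called and 13.8% called higher, and the median moved to 0.65 with all 81 members above 0. Without any 1 other library the count was 2 to 10, and with the full data it was 31 by DESeq2 and 77 by limma-voom, which called 8.48% and 28.4% of all genes. Leaving out the libraries with few genes in WT raised the count there to 75 of 81, against 28% of all genes called and 14.9% called higher, with a median of 0.70 and 1 member, Rpl24, below 0. Of those calls, 69 were shared, 92.0% of the WT calls and 97.2% of the Sirt2-/- calls. The 4 members then called in neither genotype were Rps14 and Rpl36al, Rps10 and Rpl24, the last 3 of which share exons with another gene.

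The calls of the full data overlapped in 8 members, among them Rps12, Rps26, Rps18, Rps15a, Rpl15, Rpl32 and Rpl7a, or 16% of the WT calls and 88.9% of the Sirt2-/- calls. All 8 of them were higher in each CD8+ library than in any CD4+ library. The same was true of 38 of the 81 members over the 8 CD8+ and 8 CD4+ libraries, against 4.9% of 17270 genes in this direction, and of no member in the other direction.

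Rps26, a small subunit protein at the exit of the mRNA channel, rose most among the called members in WT. It had 320, 445, 376 and 207 CPM in CD4+ and 669, 1000, 976 and 907 CPM in CD8+ WT TILs (log2 fold change 1.35 ± 0.20 SE, edgeR adjusted p = 0.0013). In Sirt2-/- mice it had 485, 471, 371 and 290 CPM in CD4+ and 924, 747, 1020 and 840 CPM in CD8+ TILs (log2 fold change 1.14 ± 0.18 SE, edgeR adjusted p = 0.019). Its lowest CD8+ library, with 669 CPM, was still well above its highest CD4+ library, with 485 CPM. The promoter window of Rps26 printed above holds overlapping pyrimidine motifs.

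Rps12 varied little within the groups. Its CPM were 298, 281, 269 and 246 in CD4+ WT, 279, 265, 252 and 262 in CD4+ Sirt2-/-, 440, 476, 516 and 509 in CD8+ WT and 442, 480, 503 and 468 in CD8+ Sirt2-/- TILs. The 8 CD4+ libraries thus lay within 246 to 298 and the 8 CD8+ libraries within 440 to 516, with log2 fold changes of 0.76 ± 0.11 SE in WT (edgeR adjusted p = 0.00091) and 0.83 ± 0.11 SE in Sirt2-/- mice (edgeR adjusted p = 0.0067). CD4+ Sirt2-/- replicate 4 was not apart in this gene.

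Rps18, a protein of the head of the small subunit, had 519, 413, 438 and 270 CPM in CD4+ WT and 731, 722, 784 and 824 CPM in CD8+ WT TILs. In Sirt2-/- mice it had 480, 408, 391 and 262 CPM in CD4+ and 835, 1051, 798 and 707 CPM in CD8+ TILs. Its log2 fold changes were 0.86 ± 0.14 SE in WT and 1.14 ± 0.18 SE in Sirt2-/- mice, both past the threshold.

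Rpl15, which acts early in the assembly of the large subunit, also varied little. It had 119, 130, 125 and 122 CPM in CD4+ WT and 134, 128, 98.3 and 96.0 CPM in CD4+ Sirt2-/- TILs, against CD8+ values from 189 to 217 CPM in both genotypes. Its log2 fold changes were 0.69 ± 0.12 SE in WT (edgeR adjusted p = 0.0038) and 0.76 ± 0.14 SE in Sirt2-/- mice (edgeR adjusted p = 0.034).

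Rps2, a small subunit protein near the entry of the mRNA channel, was the single member called only in Sirt2-/- mice. It had 293, 322, 315 and 215 CPM in CD4+ and 537, 663, 556 and 519 CPM in CD8+ Sirt2-/- TILs (log2 fold change 0.99 ± 0.13 SE, edgeR adjusted p = 0.0077). In WT mice the values were 359, 326, 319 and 454 CPM in CD4+ and 483, 621, 563 and 619 CPM in CD8+ TILs, also without overlap (log2 fold change 0.56 ± 0.18 SE, edgeR adjusted p = 0.072). The interaction was not past the threshold for any member, so Rps2 was not shown to differ between genotypes.

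**Figure D4:**
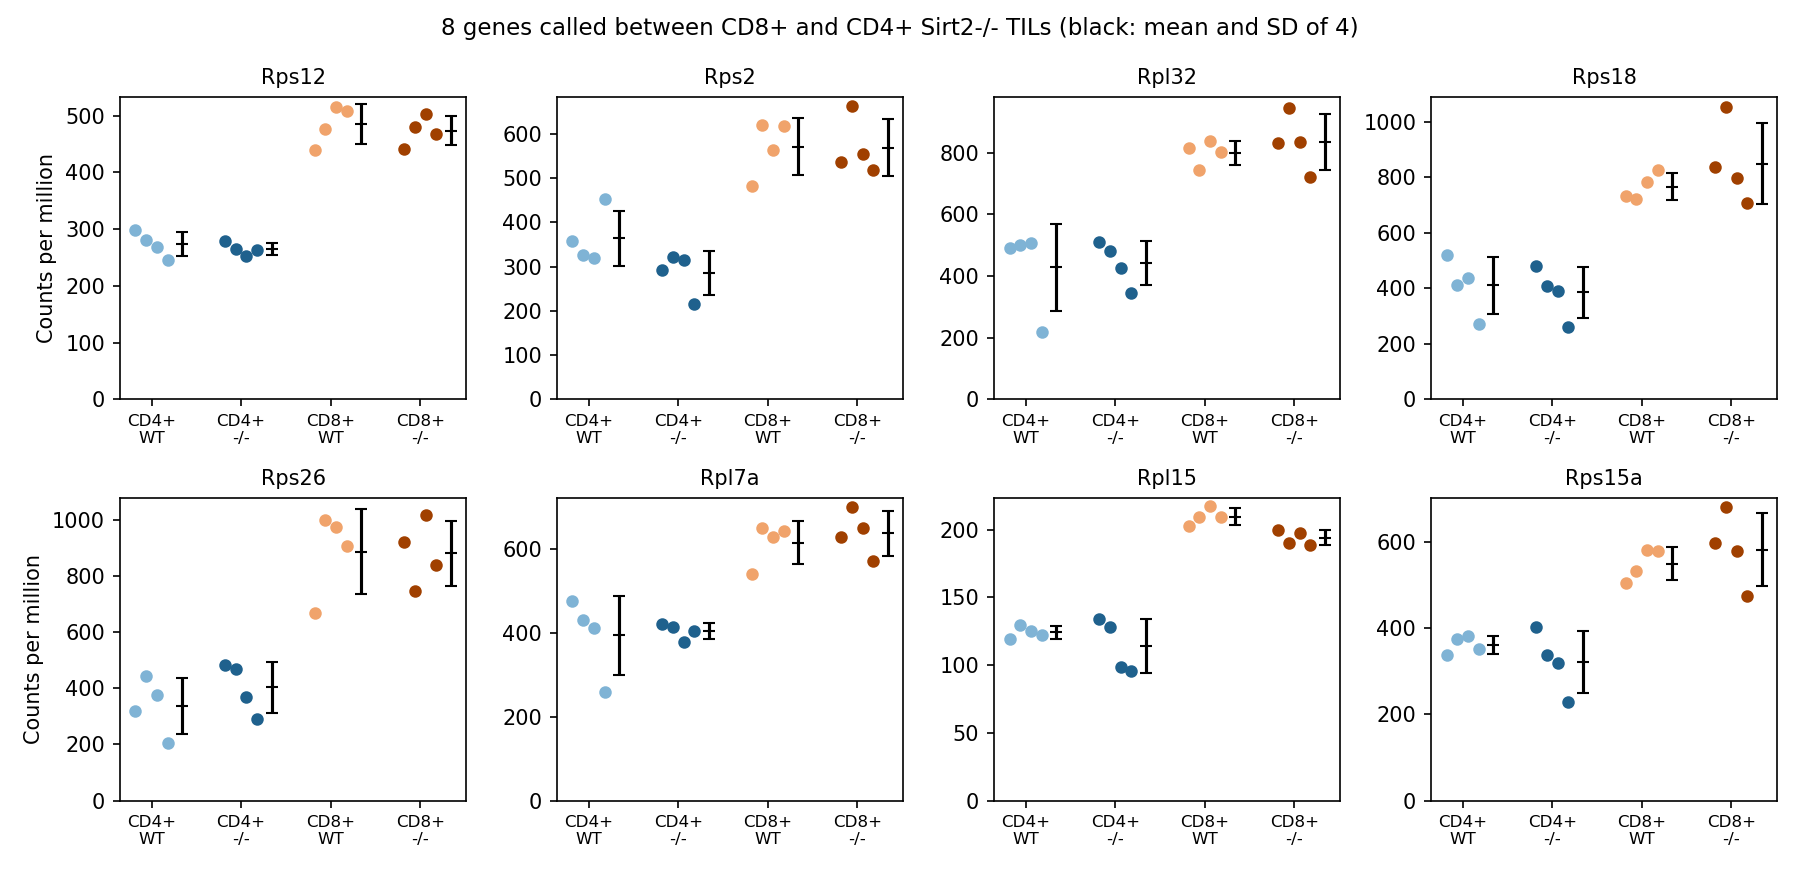
CPM per library (vertical) of 8 of the 9 members called between CD8+ and CD4+ Sirt2-/- TILs, by group, with the mean and SD of 4 libraries in black. In all 8 panels the CD8+ points lie above the CD4+ points, for Rps12 at 440 to 516 CPM against 246 to 298 CPM.

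**Figure D5:**
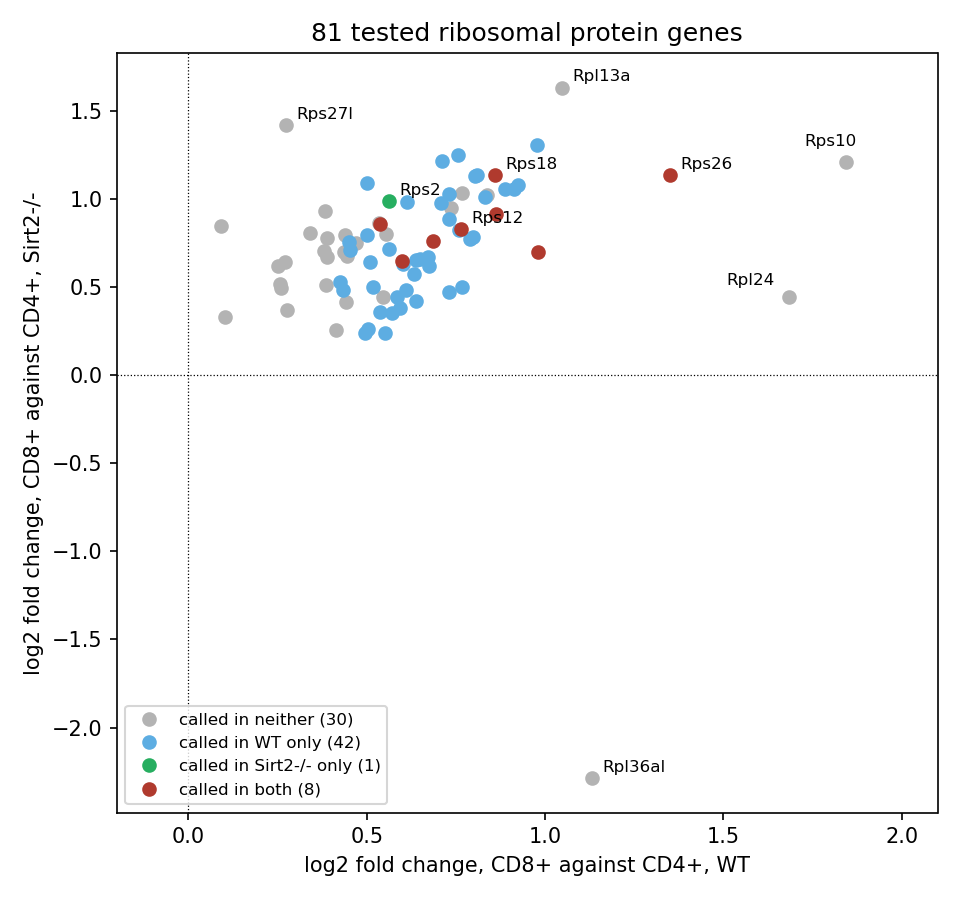
Log2 fold change between CD8+ and CD4+ TILs in WT (horizontal) and in Sirt2-/- mice (vertical, edgeR) for the 81 tested members, coloured by which comparison called them. All points lie right of 0 and all but Rpl36al above 0, and Rpl24, Rps10, Rpl36al and Rpl13a, which share exons with another gene, lie at the edges.

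Members with known functions beyond the ribosome, chosen as fixed examples, were Rpl5, Rpl11, Rps6, Rpsa and Rplp0. In the full data only Rpl5 in WT passed the threshold among these 5, while all 5 passed once the low-detection libraries (those with few genes) were left out, in both genotypes. Rpl5 and Rpl11 bind 5S RNA and, when free, the p53 regulator MDM2. Rpl5 had 696, 868, 886 and 823 CPM in CD4+ and 1104, 1291, 1483 and 1330.0 CPM in CD8+ WT TILs and rose (log2 fold change 0.59 ± 0.14 SE, edgeR adjusted p = 0.021), a call lost without CD4+ WT replicate 2 or 3 or CD8+ WT replicate 3 or 4. Rpl11 had 311, 353, 389 and 416 CPM in CD4+ and 472, 507, 522 and 533 CPM in CD8+ WT TILs, without overlap but short of the threshold (log2 fold change 0.39 ± 0.15 SE, edgeR adjusted p = 0.15). Once these were left out, the log2 fold change of Rpl11 was 0.40 ± 0.13 SE in WT and 0.53 ± 0.12 SE in Sirt2-/- mice (edgeR adjusted p = 0.041 and 0.0087).

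Rps6 is the small subunit protein phosphorylated by S6 kinase under mTORC1. Its log2 fold change was 0.55 ± 0.18 SE in WT and 0.44 ± 0.20 SE in Sirt2-/- mice, with edgeR adjusted p of 0.074 and 0.43. Once the low-detection libraries were left out, Rps6 rose by 0.52 ± 0.16 SE and 0.61 ± 0.14 SE, with edgeR adjusted p of 0.032 and 0.0093. Rpsa, also known as the laminin receptor precursor, had 0.41 ± 0.15 SE and 0.26 ± 0.28 SE, with 4515 CPM in CD4+ Sirt2-/- replicate 4 above all 15 other libraries. With those libraries left out, Rpsa rose by 0.53 ± 0.15 SE and 0.61 ± 0.14 SE, with edgeR adjusted p of 0.021 and 0.0076. The stalk proteins Rplp0, Rplp1 and Rplp2 lay low in WT, at 0.27 to 0.39, and at 0.64 to 0.93 in Sirt2-/- mice, and none of the 3 passed in either genotype. In that smaller set Rplp0 passed in both genotypes, Rplp1 in WT and Rplp2 in Sirt2-/- mice. The smallest differences in WT were those of Rpl37a, 0.09 ± 0.23 SE, and Rps14, 0.10 ± 0.14 SE.

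Rpl22l1, Rps27l and Rpl7l1, paralogs of canonical members, were expressed at a few percent of them. Rpl22l1 had 5.35% ± 1.63 of the counts of Rpl22 in CD4+ WT and 6.47% ± 1.34 in CD8+ WT TILs (SD, n = 4 each). Rpl22, which is needed for the development of alpha-beta T cells, and Rpl22l1 both rose in CD8+ WT TILs, by 0.50 ± 0.14 SE and 0.81 ± 0.17 SE on the log2 scale (edgeR adjusted p = 0.040 and 0.012). Rps27l, a p53 target, had 4.64% ± 2.49 of the counts of Rps27 in CD4+ WT and 3.77% ± 0.955 in CD8+ WT TILs (SD, n = 4 each). Rpl7l1 had 6.15% ± 0.456 and 5.77% ± 0.147 of the counts of Rpl7 (SD, n = 4 each). For each of these 3 pairs the CD4+ and CD8+ WT groups overlapped in this ratio. In Sirt2-/- mice Rpl7l1 stood at 4.40% ± 1.15 in CD4+ and 5.55% ± 0.523 in CD8+ TILs (SD, n = 4 each). Rpl22l1 stood at 5.81% ± 0.535 (SD, n = 3) and 6.21% ± 0.709 (SD, n = 4). Rps27l stood at 2.75% ± 0.942 (SD, n = 3) and 4.36% ± 1.93 (SD, n = 4). CD4+ Sirt2-/- replicate 4, without a count of Rpl22l1 or Rps27l, is left out of these. The Sirt2-/- groups overlapped as well in each of the 3 ratios, which carry no test. Rpl36al, which shares exons with another gene, was lower, at 0.292% ± 0.322 of the counts of Rpl36a in 3 CD4+ WT libraries (SD, n = 3, with no count in the other one) and at 0.246% ± 0.132 in CD8+ WT TILs (SD, n = 4). Rpl10l, Rpl3l and Rpl39l had few or no counts, as given above.

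The difference between cell types was present in members with and without sequence shared with a transcript of another gene. In WT the 5 tested members with no shared 100-base stretch had a median log2 fold change of 0.50, the 54 with up to 50% shared 0.58 and the 22 with more 0.66, all of them positive. Members with one of the 4 motifs in the promoter window had a median of 0.60 in WT (n = 29 tested) and those without 0.58 (n = 32 tested). For Sirt2-/- mice these medians were 0.83 and 0.69.

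Other genes of ribosome assembly and translation were read from fixed lists. In the full data of WT mice, 4.89% of all 14892 genes were called higher in CD8+ TILs. Of 27 ribosome biogenesis genes tested, 17 rose in CD8+ WT TILs, with a median log2 fold change of 1.14, and none fell. They included Dkc1, the pseudouridine synthase of ribosomal RNA, at 1.82 ± 0.16 SE, Nop58, a core protein of box C/D particles, at 1.56 ± 0.23 SE, and Ncl, nucleolin, at 0.79 ± 0.17 SE. Of 6 elongation factors 4 rose, among them Eef1a1 from a mean of 4185 to 6737 CPM (0.61 ± 0.13 SE), and of 26 initiation factors 8 rose, among them the helicase Eif4a1 at 1.30 ± 0.16 SE. Of 10 other TOP genes 5 rose, such as Npm1 at 1.17 ± 0.16 SE and Rack1, a protein bound to the small subunit, at 0.54 ± 0.10 SE. All these values are edgeR log2 fold changes of genes past the threshold. Without CD4+ WT replicate 1 and CD8+ WT replicate 1, the libraries with few genes detected, 26 of the biogenesis genes, 5 of the elongation factors, 20 of the initiation factors and 8 of the other TOP genes rose, against 14.9% of all genes. Leaving out 1 library lowered the elongation factors to 2 (without CD4+ WT replicate 2 or 3 or CD8+ WT replicate 3 or 4) and the other TOP genes to 3 (without CD4+ WT replicate 3 or CD8+ WT replicate 3 or 4). The initiation factors called were 5 without CD8+ WT replicate 4 and 16 without CD8+ WT replicate 1.

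Proteins of the mitochondrial ribosome, which is separate from the cytosolic one, had 6 of 77 genes risen in WT, beside the background of 4.89%, with a median of 0.44. This count rested on single libraries: it was 25 without CD4+ WT replicate 1, 10 without CD8+ WT replicate 1 and 1 to 3 without CD4+ WT replicate 3 or CD8+ WT replicate 2, 3 or 4. Without both libraries with few genes detected, 38 of the 77 rose, with a median of 0.58. The 14 genes of the mTORC1 pathway and Myc were split in WT, with 7 higher, 7 lower and a median of 0.07. Among them Myc and Larp1 rose, at 1.63 ± 0.14 SE and 0.74 ± 0.15 SE, beside 4.89% of all genes called higher. The repressors Eif4ebp2 and Tsc1 fell, at -0.77 ± 0.12 SE and -0.58 ± 0.15 SE, beside 6.96% called lower. Without the libraries with few genes detected, 3 rose and 2 fell, with a median of 0.19, against 14.9% and 13.1% of all genes. Of 7 naive and memory genes 4 fell in CD8+ WT TILs, beside 6.96% of all genes called lower, Il7r at -1.54 ± 0.22 SE, S1pr1 at -0.75 ± 0.16 SE, Lef1 at -0.62 ± 0.14 SE and Tcf7 at -0.55 ± 0.13 SE. The count of 4 was 1 without CD8+ WT replicate 2 and 2 without CD4+ WT replicate 3 or CD8+ WT replicate 3 or 4, and it stayed at 4 without the libraries with few genes detected, where 13.1% of all genes were called lower. Of 3 ribosomal stress genes, 1 was higher and 2 were lower in CD8+ WT TILs, with a median of -0.03. The higher one, Trp53, rose at 0.53 ± 0.14 SE, a call lost without CD4+ WT replicate 2 or 3 or CD8+ WT replicate 2, 3 or 4.

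In the full data of Sirt2-/- mice fewer genes of these lists passed, with 9 of 27 biogenesis genes, 1 of 6 elongation factors, 2 of 26 initiation factors, 1 of 10 other TOP genes and 0 of 77 mitochondrial ribosomal proteins risen, beside the background of 0.918%. Without CD4+ Sirt2-/- replicate 4, the library with few genes detected, these counts were 24, 5, 18, 7 and 40, against 13.8% of all genes called higher. Without 1 of the other libraries of these groups the initiation factors fell to 0 or 1, and the other TOP genes to 0 except without CD4+ Sirt2-/- replicate 1. Of the 14 mTORC1 and Myc genes, 8 were higher and 6 lower in the full data, with a median of 0.10. Only Larp1 passed the threshold there, at 0.85 ± 0.11 SE. Without CD4+ Sirt2-/- replicate 4, 2 of the 14 rose and 2 fell, against 13.8% and 11.6% of all genes. The biogenesis genes Nolc1, Nop58, Nop56, Dkc1, Mybbp1a, Gnl3, Fbl and Rrs1 passed in both genotypes, and Nop2 in Sirt2-/- mice. Between genotypes none of these lists had a gene past the threshold in either cell type.

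Marker lists of other cells were summed in each library. The myeloid list of 9 genes summed to 1.61 to 34.3 CPM in CD4+ and 2.29 to 36.5 CPM in CD8+ libraries, and the B cell list of 4 genes to at most 13.4 CPM. The tested myeloid and stromal genes lay higher in Sirt2-/- in both cell types. In CD4+ TILs, where 41 members were higher and 40 lower, the 7 tested myeloid and 3 tested stromal genes were all higher. Their median log2 fold changes were 1.33 and 1.30, and none passed an unadjusted p of 0.05. Among CD8+ TILs, 73 of 81 members were higher in Sirt2-/-. The myeloid sum was 2.29 to 9.06 CPM in CD8+ WT and 8.62 to 36.5 CPM in CD8+ Sirt2-/- libraries, and the 7 tested genes were all higher in Sirt2-/-, with a median log2 fold change of 2.36, 3 of them at an unadjusted p of 0.05 and none past the threshold. The stromal sum was 37.1 to 46.7 CPM in CD8+ WT and 40.2 to 102 CPM in CD8+ Sirt2-/- libraries, and the 3 tested genes were all higher, with a median of 2.08, 2 of them at an unadjusted p of 0.05 and none past the threshold. CD8+ Sirt2-/- replicate 4 had the highest sum of both lists, and without it the median of the members was 0.17. The melanoma list, highest in CD4+ WT replicate 1, held no called gene. The NK list of 3 genes summed to 14.1 to 47.3 CPM in CD4+ and 212 to 418 CPM in CD8+ libraries, nearly all of it Eomes, which CD8+ T cells also express, with Ncr1 at most 3.39 CPM in any library. The stromal list of 4 genes summed to 57.7 to 186 CPM in CD4+ and 37.1 to 102 CPM in CD8+ libraries, with Pecam1, which T cells also express, the highest of the 4 in every library. The part of these lists in the ribosomal protein difference was not tested. Without the 3 libraries with few genes, which include the 2 highest in melanoma genes, more members were called in both genotypes, as given above.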

How the data were processed

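RNA from CD4+ and CD8+ TILs was sequenced as strand-specific, rRNA-depleted total RNA (SMARTer Stranded Total RNA-seq Pico kit). Per the labels, the authors processed reads with STAR, HTSeq and the mm10 build (versions not given in the sources used here) and deposited a table of raw counts per gene for all 16 libraries. Row identifiers matched GENCODE M21 in all 55450 rows.

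Each pair of groups was compared with edgeR 4.0.16 (quasi-likelihood, trimmed-mean (TMM) normalization, filterByExpr; R 4.3.3), with p adjusted by Benjamini–Hochberg over all genes of the comparison and a threshold of 0.05. The genotype by cell type interaction used all 16 libraries. DESeq2 1.42.0, limma-voom (limma 3.58.1), other normalizations and filters, and leaving out libraries were alternatives. Fits were tested on simulated data. Shares, ratios and per-library values use plain CPM and carry no test. Exon overlaps and shared 100-base stretches come from GENCODE M21, and promoter windows from RefSeq (GRCm38.p6), which matched 64 of 84 members. The members and lists were chosen with earlier results of these data known. Named genes were members called in a comparison (all, or the 10 with the smallest p per direction), those with the 5 largest differences without overlap per direction, paralogs, 5 fixed examples, the 5 highest and lowest by CPM and called genes of the lists; Rpl37a and Rps14 were named after their values were seen, and the values of 2 members that the rule names are not reported here. No library pair had identical counts. Totals were 28000949 to 62407851 counts per library, and p rests on the spread between 4 libraries per group; no interval for counting error is given.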

Additional observations from a re-analysis of the deposited data

Results flagged for a closer look

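A value was marked where 1 of the 4 libraries of a group lay so far from the nearest other that the gap, as a share of the whole range of the group, passed Dixon's 95% critical value. This was the case for 12 of 136 groups of 4 values examined (shares, subunit ratios, scatter and the CPM of 31 genes), and chance marks about 1 in 20.

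Of the 12, 5 belonged to CD4+ Sirt2-/- replicate 4, the library with 8169 genes detected. The scatter of its members around their group was 1.34 log2 units, against 0.461 to 0.487 in the other 3. Rpl22 had 1074 CPM there (others 491 to 587), Rpl41 395 CPM (others 235 to 251) and Rpl36al 14.5 CPM (others 0.172 to 0.667), and Rpl22l1 was at 0 (others 31.1 to 33.5).

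CD8+ WT replicate 1, with 14411 genes detected, had a scatter of 0.403 (others 0.155 to 0.177), Rps10 at 9.95 CPM (others 2.22 to 2.53) and Rpl7l1 at 61.3 CPM (others 76.9 to 79.7). CD4+ WT replicate 4 was low in Rpl32, with 218 CPM (others 491 to 508), and Rpl22, with 357 CPM (others 594 to 638). CD8+ Sirt2-/- replicate 4 was low in Rpl22l1, with 45.7 CPM (others 53.2 to 53.7), and Rpl7, with 1202 CPM (others 1366 to 1397).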

How the results depend on the processing

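None of the members recomputed singly (those called, without overlap or fixed as examples in a comparison) changed the sign of its log2 fold change under any alternative run, and no member was called between genotypes, or in the interaction, under any of them. In WT, 50 members were called between CD8+ and CD4+ TILs, 77 with limma-voom and 28 to 63 when 1 library was left out, the lowest without CD8+ WT replicate 4 (31 without CD8+ WT replicate 3). In Sirt2-/- mice, 9 members were called, but 31 with DESeq2, 77 with limma-voom, 18 without a filter, 29 with at least 10 counts in every library, 38 with all 16 libraries in 1 model and 71 without the low-detection library (few genes, CD4+ replicate 4); leaving out 1 library gave 2 to 71, with 2 without CD4+ replicate 2 or 3 or CD8+ replicate 1 or 3, 3 without CD8+ replicate 2 and 4 without CD8+ replicate 4. Of the 9, only Rps12 and Rps2 were called without any 1 library. Other values did change sign. Among the members that share exons with another gene, leaving out the low-detection libraries turned Rpl36al in Sirt2-/- mice to 0.95 and Rpl24 in WT to -0.15. The log2 ratio of Rpl36al to Rpl36a between CD8+ and CD4+ TILs ran from -0.659 to 1.45 in WT and from -2.92 to 0.139 in Sirt2-/- mice without 1 library. When 1 library was left out, the genotype median in CD4+ TILs (0.0087) ran from -0.157 to 0.131, the interaction median (0.10) from -0.016 to 0.25 and the log2 ratio of Rps27l to Rps27 between CD8+ and CD4+ WT TILs (-0.157) from -0.503 to 0.116. Leaving out all low-detection libraries, the latter 2 were -0.037 and 0.319. With a replicate block the counts were 3 in Sirt2-/- and 54 in WT mice. Same-numbered libraries correlated at 0.067 to 0.119 in WT and at -0.014 to 0.133 in Sirt2-/- mice, and as not every one was over 0.1 in either genotype, the numbers were not taken as pairs, although every WT sample correlated best with its own number, a hint from the data and not from the design. As a share of protein-coding counts, the members held 4.83% and 4.95% in WT and Sirt2-/- CD4+ TILs and 7.15% and 7.57% in CD8+ TILs. Medians of the members moved by less than the spread between libraries in every alternative, including 2 chosen after seeing the data, members without shared 100-base stretches and without those inside another gene. The cause of the differences between settings was not tested. Total RNA libraries report shares of counts, so an equal change of all genes would not be seen, and 4 libraries per group limit the calls.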
